A study of Arabidopsis thaliana with 9 samples.

Results

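Shoots of Arabidopsis thaliana labelled cuc2-3 were compared with shoots of wild type (WT). It uses 6 of the 9 RNA-seq libraries of the study, chosen by their genotype label, 3 of cuc2-3 and 3 of WT. The other 3 libraries, labelled CUC2gm-4, entered the fit and are given beside some of the single genes. Where they are not given, a difference is not said to be particular to cuc2-3. All plants were Col0, were collected at 21 days, and grew untreated on soil at 21 °C and 65% humidity with 8 h of light. CUC2 (AT5G53950) is the gene that names cuc2-3, and the series' design text calls both mutants knock-outs without giving the lesion. The labels do not say how many plants a library holds or whether libraries came from separate plants, so p-values measure the spread between these libraries, which may be technical.

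CUP-SHAPED COTYLEDON genes encode NAC transcription factors that restrain growth in the narrow zones between organs and at the margins of leaves. CUC1 and CUC2 transcripts are targets of the microRNA miR164, and CUC2 is known for the outgrowth of leaf teeth. Genes active in such zones make up a small share of the RNA of a whole shoot, where mesophyll cells prevail.

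The cuc2-3 libraries held 22835829, 18039106 and 27734410 counts, and the WT libraries 18384626, 17361433 and 22934969. A count of 3 then stood for 0.108 to 0.173 CPM (counts scaled by the library total) over the 9 libraries. Library 3 of cuc2-3 stood apart: 92.2% of its reads mapped, against 95.4% to 96.6% in the others, and it had the highest organelle and 18S ribosomal RNA reads, so values that rest on it are given with and without it. Leaf markers prevailed. All 6 mesophyll, 4 guard cell, 4 epidermis and 3 trichome markers were abundant enough to test, against 1 of 10 root markers and none of the 7 flower, 9 seed and 7 pollen markers, which reached at most 14, 8 and 9 counts in a library. The root set reached up to 5141 counts for a marker in a library, so the 1 tested root marker was not low. No marker passed the test between the genotypes.

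Values below are normalised CPM, scaled by TMM factors, unless called counts. Differences are log2 fold changes of cuc2-3 over WT with their standard errors from edgeR's quasi-likelihood fit to all 9 libraries, and a gene passed at a Benjamini-Hochberg adjusted p below 0.05. Of 18291 genes tested, 4 passed (0.0219%), 3 of them higher (0.0164%) and 1 lower (0.00547%) in cuc2-3. With replicate number as a block 4 passed as well, and 3.73% of genes had an unadjusted p below 0.05; DESeq2 called 14 (0.0765%). In the fit without a block the unadjusted p was below 0.05 for 358 genes (1.96%), 242 higher (1.32%) and 116 lower (0.634%). The 3 cuc2-3 libraries lay wholly above or below the 3 WT libraries for 1010 genes (5.52%), 525 higher (2.87%) and 485 lower (2.65%). In RNA of whole shoots, more RNA per cell and more cells that hold it cannot be told apart.

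The genes that passed were MRD1 (AT1G53480, named for a transcript that is low in the methionine-overaccumulating mutant mto1), SADHU3-2 (AT3G42658, a pseudogene of the Sadhu retroelements, which are short non-autonomous elements), AT2G44970 (annotated as an alpha/beta-hydrolase) and TRM21 (AT5G43880). TRM proteins carry a motif that recruits TON1, a protein that organises cortical microtubules and the plane of cell division. In TAIR10.1, whose positions were found by identifier, the genes lie on the minus strand: MRD1 at chr1:19963047-19964712, AT2G44970 at chr2:18548813-18552171, SADHU3-2 at chr3:14749400-14750294 and TRM21 at chr5:17639776-17643982. TRM21 is on the chromosome of CUC2, 4.26 Mb away.

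The 250 bases before the annotated start of 3 of these genes are shown 5′ to 3′ on the gene's strand, since they are the sequence next to the genes that carry the difference. They were read from RefSeq's TAIR10.1. Capitals mark every match, on either strand, to TATAAA (the core of a TATA box) or CACG (letters within the core bound by NAC factors). The windows are chr1:19964713-19964962 for MRD1, which lies in an intron of HEI10, chr3:14750295-14750544 for SADHU3-2 and chr5:17643983-17644232 for TRM21.
MRD1: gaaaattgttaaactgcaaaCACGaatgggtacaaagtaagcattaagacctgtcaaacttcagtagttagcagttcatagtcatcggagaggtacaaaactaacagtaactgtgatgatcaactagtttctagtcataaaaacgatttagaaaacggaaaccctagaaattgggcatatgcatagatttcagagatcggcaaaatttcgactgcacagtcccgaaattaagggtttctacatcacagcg
SADHU3-2: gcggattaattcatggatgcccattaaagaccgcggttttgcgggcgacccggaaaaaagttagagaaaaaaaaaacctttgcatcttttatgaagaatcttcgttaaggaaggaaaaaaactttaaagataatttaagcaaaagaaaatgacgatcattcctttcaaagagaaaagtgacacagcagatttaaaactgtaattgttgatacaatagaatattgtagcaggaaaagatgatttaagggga
TRM21: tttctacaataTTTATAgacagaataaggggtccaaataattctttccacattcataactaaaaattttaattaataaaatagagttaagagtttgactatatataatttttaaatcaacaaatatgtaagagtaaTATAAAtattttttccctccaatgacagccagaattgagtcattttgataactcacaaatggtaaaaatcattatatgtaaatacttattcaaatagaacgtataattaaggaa
The window of MRD1 holds CACG 230 to 227 bases before the start. The window of TRM21 holds TATAAA on the gene's strand 114 to 109 bases before the start and on the other strand 239 to 234 bases before it. SADHU3-2 has neither in its window, nor does AT2G44970, whose window is not shown because it overlaps exons of the next gene, ASG3, 1 base away. TATAAA stood in 47.3% and CACG in 45.6% of the windows of 27443 protein-coding genes, on either strand, so a match is common and is given as a description. The share of G and C was 38% before MRD1, 34% before SADHU3-2 and 22.8% before TRM21.

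MRD1 was close to absent from WT and abundant in cuc2-3. It had 38.4, 29.9 and 37.0 normalised CPM in cuc2-3, against 0.125, 0.112 and 0.0423 in WT, from 836, 530 and 1040 counts in cuc2-3 and 2, 2 and 1 in WT. The groups were far apart and the cuc2-3 libraries close together. MRD1 rose in cuc2-3 by a log2 fold change of 8.56 ± 0.32 (SE; edgeR, Benjamini-Hochberg adjusted p = 6.3e-07). From the summed counts the ratio was 412, with a counting interval of 176 to 1269. The libraries labelled CUC2gm-4 had 30.7, 42.8 and 37.1, which overlap cuc2-3, and the cuc2-3 over CUC2gm-4 difference was -0.07, with a 95% interval of -0.47 to 0.33.

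SADHU3-2 was the gene with the highest fold change among those tested, and it was high in cuc2-3 only. It met the minimum of 1 CPM in 3 libraries only through cuc2-3, the group where it was high. Its rank and adjusted p-values carry that limit. It had 85.7, 85.2 and 80.6 normalised CPM in cuc2-3, against 0.187, 0.279 and 0 in WT, from 1865, 1510 and 2269 counts in cuc2-3 and 3, 5 and 0 in WT. It rose by 9.16 ± 0.55 (edgeR, Benjamini-Hochberg adjusted p = 4.8e-05), and the ratio of summed counts was 603 with a counting interval of 306 to 1398. Those labelled CUC2gm-4 had 0.201, 0.449 and 0.0410, within or just beside the WT range. Against those libraries SADHU3-2 was again higher in cuc2-3, by 8.55 ± 0.51 (edgeR, Benjamini-Hochberg adjusted p = 9.8e-05). That comparison, which shares the cuc2-3 libraries with the one against WT, had 3 genes past the threshold of 18291 (0.0164%).

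AT2G44970 was expressed in WT and about 4 times as abundant in cuc2-3. It had 34.8, 31.8 and 30.6 normalised CPM in cuc2-3, against 7.74, 6.19 and 8.00 in WT, so the lowest cuc2-3 library was well above the highest WT library. It rose by 2.15 ± 0.16 (edgeR, Benjamini-Hochberg adjusted p = 0.00025). The ratio of summed counts was 4.40, with a counting interval of 3.96 to 4.89. In those labelled CUC2gm-4 it had 33.7, 33.7 and 37.9, and the difference of cuc2-3 from them was -0.12 ± 0.15, with an interval of -0.44 to 0.21.

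TRM21 fell in cuc2-3. It had 4.68, 6.94 and 7.07 normalised CPM in cuc2-3, against 27.4, 27.3 and 22.3 in WT. No cuc2-3 library came near the lowest WT library, and the log2 fold change was -2.04 ± 0.19 (edgeR, Benjamini-Hochberg adjusted p = 0.0020). The libraries labelled CUC2gm-4 had 29.4, 33.0 and 31.1, above every WT library, and TRM21 was lower in cuc2-3 than in them by a log2 fold change of -2.32 ± 0.19 (edgeR, Benjamini-Hochberg adjusted p = 0.0012). In a fit of the 6 cuc2-3 and WT libraries alone with replicate number as a block, TRM21 had -2.05 and an adjusted p of 0.0502, within a range of 9.3e-19 to 0.0502 over its 20 alternative settings.

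**Figure D1:**
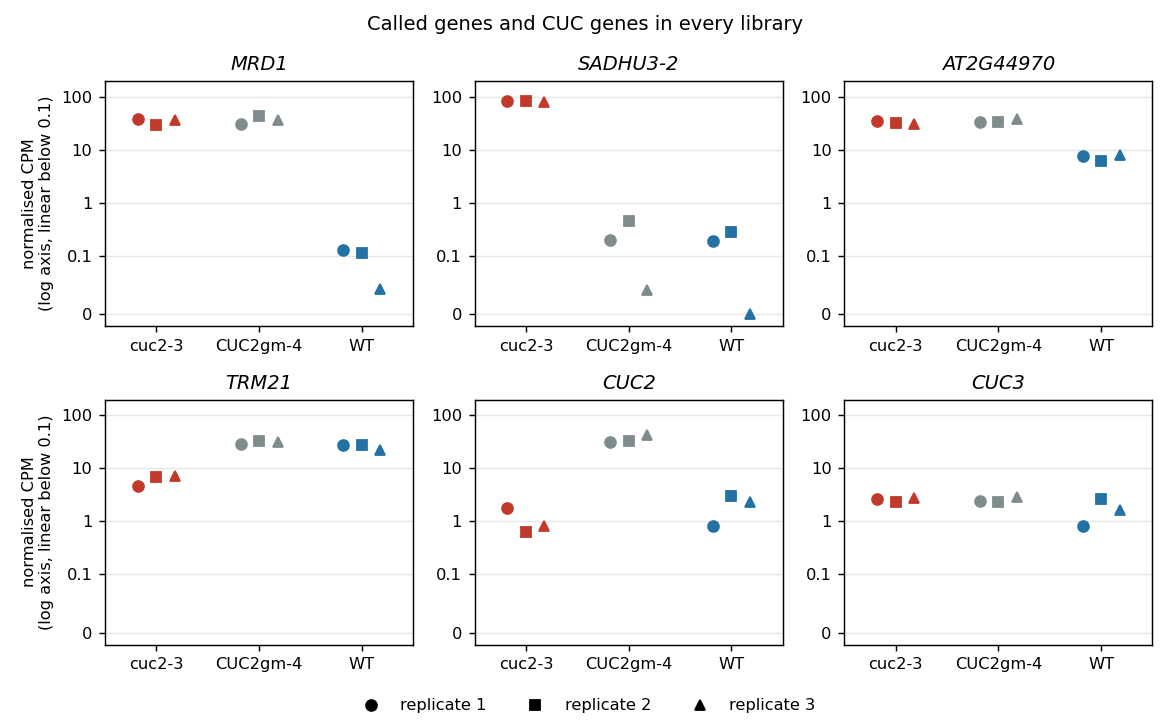
Normalised CPM (log axis, linear below 0.1) of the 4 genes that passed and of CUC2 and CUC3 in each library of cuc2-3, the libraries labelled CUC2gm-4 and WT. Each point is 1 library and its shape gives the replicate number; MRD1, SADHU3-2 and AT2G44970 lie above WT in all 3 cuc2-3 libraries and TRM21 below, while CUC2 and CUC3 overlap between cuc2-3 and WT.

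The genes next to these 4 did not pass the test. HEI10 (AT1G53490), a ligase known from meiotic crossovers, overlaps MRD1 by 1446 bases on the opposite strand. It had 5.56, 5.81 and 5.86 in cuc2-3, against 3.99, 4.24 and 4.40 in WT. The groups did not overlap, and the log2 fold change was 0.45 ± 0.19 (edgeR, unadjusted p = 0.037, Benjamini-Hochberg adjusted p = 1). How the authors' counting treated strand is not stated, so reads of MRD1 and HEI10 may be shared between them, and AT1G07887, a further overlapping gene, was not analysed here. The other tested neighbours ranged from -0.24 (YUC5, an auxin synthesis enzyme next to TRM21) to 0.16 (HUB1, a ligase for histone H2B next to AT2G44970). All possible 31-base words of the AT2G44970 and TRM21 exons occur once in TAIR10.1, as do 99.4% of those of SADHU3-2 and 92.6% of those of MRD1, so reads from most of their length match a single place.

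**Figure D2:**
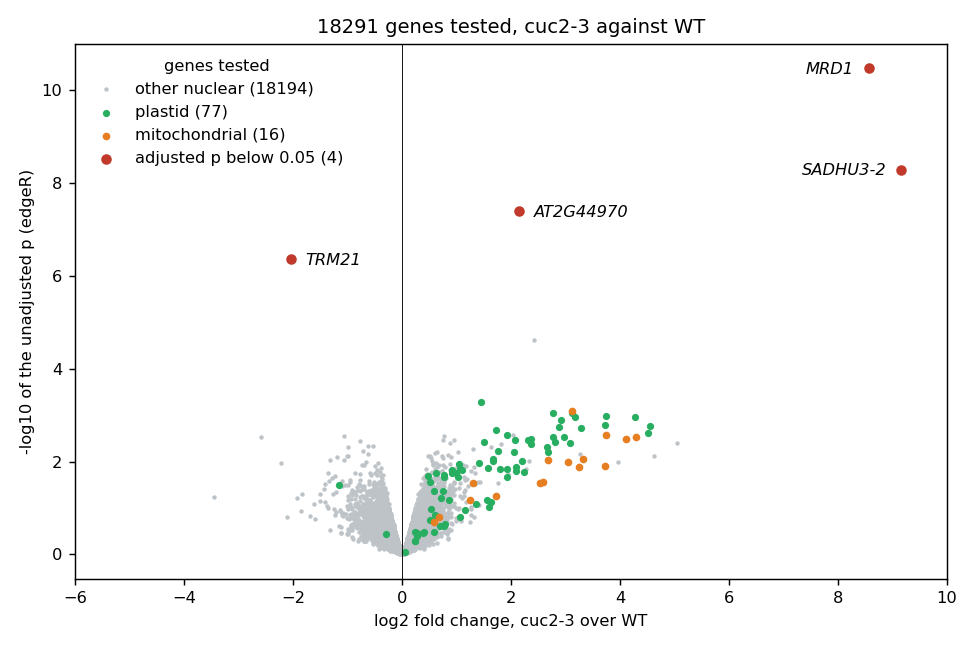
Unadjusted p (minus log10, edgeR) against the log2 fold change of cuc2-3 over WT for 18291 genes tested. Each point is a gene; the 4 that passed are named, plastid and mitochondrial genes are coloured, and 75 of 77 plastid and all 16 mitochondrial genes lie right of 0.

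CUC2 itself was low in both genotypes. It had 38, 11 and 23 counts in cuc2-3, against 13, 53 and 55 in WT, which gave 1.75, 0.621 and 0.817 normalised CPM in cuc2-3 and 0.811, 2.96 and 2.33 in WT. Library 1 of cuc2-3 lay within the WT range and library 1 of WT within the cuc2-3 range. The log2 fold change of CUC2 was -0.95 ± 0.46, with a 95% interval of -1.95 to 0.06 (edgeR, unadjusted p = 0.063). It was -1.50 without cuc2-3 library 1 and -0.61 without WT library 2. An exact two-sided permutation test of 3 libraries against 3 gave p = 0.3 and cannot go below 0.1. The libraries labelled CUC2gm-4 had 779, 656 and 1062 CUC2 counts, more than any other library, although the series' text calls that genotype a knock-out too. Where the lesion of cuc2-3 lies within the counted model is likewise not stated, so this level does not check the label.

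CUC3 (AT1G76420), a partner of CUC2 in boundaries that lacks the miR164 site, had 57, 41 and 78 counts in cuc2-3, against 13, 48 and 38 in WT. Its log2 fold change was 0.59 ± 0.38, with an interval of -0.24 to 1.43 (exact permutation p = 0.3). CUC1 (AT3G15170), the closest relative of CUC2, had 16, 28 and 12 counts in cuc2-3 and 9, 22 and 16 in WT, below the minimum for testing in the fit (exact permutation p = 0.8). The miR164 precursor genes had no counts in cuc2-3, and in WT only MIR164b had any, 1 in library 1 and 1 in library 3.

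The cuc2-3 libraries held more reads from the plastid and mitochondrial genomes than WT. These genes were grouped after the data were seen. Plastid genes took 0.177%, 0.244% and 0.398% of the counts in cuc2-3, against 0.128%, 0.116% and 0.110% in WT. Every cuc2-3 library was above every WT library, with means of 0.273% ± 0.113 in cuc2-3 and 0.118% ± 0.00924 in WT (SD, n = 3 each). The share was 2.31 times that of WT with all libraries and 1.78 times without library 3 of cuc2-3. The libraries labelled CUC2gm-4 lay between 0.229% and 0.282%, also above WT.

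Of 133 plastid gene models, 101 had counts and 77 were tested. The log2 fold change was positive for 48 of the 50 with a WT mean of at least 1 normalised CPM. It was positive for 75 of all 77, against 48.3% of all genes tested, with a median of 1.51 against -0.01 over all genes. The libraries did not overlap for 44, all higher in cuc2-3 (against 2.87% of all genes in that direction). In the edgeR fit that gives the values here, no plastid gene passed at a Benjamini-Hochberg adjusted p below 0.05. An unadjusted p below 0.05 was reached by 52 higher (against 1.32% of all genes) and 1 lower (0.634%). In DESeq2 7 passed, all higher, against 0.0765% of all genes in either direction. Library 3 of cuc2-3 was the highest library for 46 of the 77, and without it the median was 1.03. For 50 of the 77, libraries 1 and 2 of cuc2-3 were both above all 3 WT libraries, a share that was not counted over all genes.

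ATCG00130 and ATCG00280 are examples from the 7 plastid genes that passed in DESeq2. Their log2 fold changes lay above the plastid median of 1.51, and that of ATCG00280 above the plastid 95th percentile of 3.72. ATCG00130 had 4.82, 4.85 and 23.9 normalised CPM in cuc2-3, against 1.12, 1.34 and 2.41 in WT. The groups did not overlap, and the log2 fold change was 2.77 ± 0.61 with all libraries and 1.55 without library 3 of cuc2-3. ATCG00280 had 24.5, 43.9 and 409 in cuc2-3, against 4.06, 5.86 and 14.5 in WT, a log2 fold change of 4.27 ± 0.96, or 2.05 without library 3 of cuc2-3. Their Benjamini-Hochberg adjusted p was 1 in edgeR for both, and in DESeq2 it was 0.0013 for ATCG00130 and 0.049 for ATCG00280, within ranges of 0.0013 to 1 and 0.027 to 1 over 20 alternative settings. The libraries labelled CUC2gm-4 had 8.52, 8.87 and 8.68 for ATCG00130 and 45.5, 56.8 and 57.6 for ATCG00280, above libraries 1 and 2 of cuc2-3. The reference names neither gene.

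Mitochondrial genes were rarer and depended more on a single library. They took 0.00267%, 0.00233% and 0.0223% of the counts in cuc2-3, against 0.00139%, 0.00156% and 0.00209% in WT. Libraries 1 and 2 of cuc2-3 lay just above WT, and library 3 lay far above them. The libraries labelled CUC2gm-4 took 0.00455%, 0.00603% and 0.00572%, also above every WT library and above libraries 1 and 2 of cuc2-3. The cuc2-3 share was 5.41 times that of WT with library 3 of cuc2-3 and 1.49 times without it. Of 16 mitochondrial genes tested, all 16 had a positive log2 fold change, with a median of 2.87, or 0.63 without that library, which was the highest for all 16. Only 2 of them had a WT mean of at least 1 normalised CPM. The rest needed libraries of cuc2-3 or CUC2gm-4 to meet the count minimum, so their shared direction is partly set by it. Of the 76 mitochondrial models with counts, 65 had the higher mean in cuc2-3 and 11 in WT. None of the 16 tested passed in that edgeR fit. An unadjusted p below 0.05 was reached by 12 (against 1.96% of all genes), and 1 passed in DESeq2 (against 0.0765%).

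The reads of nuclear ribosomal RNA were also highest in library 3 of cuc2-3. AT3G41768, an 18S ribosomal RNA model, had 3.95, 1.86 and 121 normalised CPM in cuc2-3, against 0.749, 1.06 and 1.95 in WT. Library 2 of cuc2-3 lay within the WT range, and the log2 fold change was 5.04 ± 1.38, or 1.19 without library 3 of cuc2-3. The libraries labelled CUC2gm-4 had 4.62, 7.13 and 11.8, above every WT library. Most organelle and 18S ribosomal transcripts carry no stable poly(A) tail, and messenger RNA selection removes most of them. The library with the highest values, library 3 of cuc2-3, also had the lowest mapping rate; the part of RNA selection and mapping in these values was not tested. Only 3.49% of the 31-base words of AT3G41768, 63.0% of those of the plastid genome and 27.5% of those of the mitochondrial genome occur once in TAIR10.1, and reads with several best places had been removed from the counts.

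**Figure D3:**
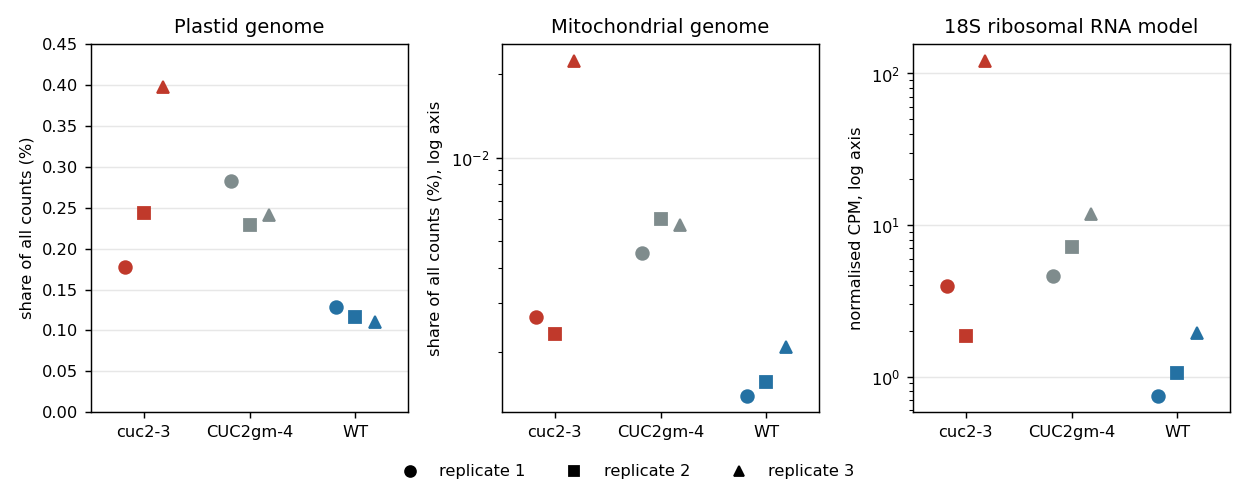
Share of all counts from the plastid genome (percent, axis from 0) and the mitochondrial genome (percent, log axis), and normalised CPM of the 18S ribosomal RNA model AT3G41768 (log axis), in each library. Points are libraries, shaped by replicate number; library 3 of cuc2-3 is the highest in all 3 panels, and the plastid share is above WT in every cuc2-3 library.

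Apart from the 4 genes that passed, few nuclear genes differed widely. Over all genes tested, 5% of log2 fold changes lay below -0.37 and 5% above 0.41, and 165 genes lay beyond 1 in either direction, 112 higher and 53 lower. Of those, 102 were nuclear, 50 higher and 52 lower. For 82% of the genes tested the whole 95% interval lay within a 2-fold change in either direction, and for 30 it lay wholly outside, 15 plastid, 5 mitochondrial and 10 nuclear. The 10 nuclear genes, chosen after their values were seen, were the 4 that passed, AT3G41768 and the 5 described next.

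AT3G29644, a long non-coding RNA on chromosome 3, came closest to passing. It had 6.98, 4.74 and 6.75 normalised CPM in cuc2-3, against 0.749, 1.73 and 0.974 in WT. The groups were well apart, with a log2 fold change of 2.42 ± 0.34 (edgeR, Benjamini-Hochberg adjusted p = 0.088, and 5.6e-08 to 0.72 over 20 alternative settings). In the libraries labelled CUC2gm-4 it had 7.48, 4.84 and 7.41. AT5G57760, an uncharacterized protein gene, had 0.184, 0.621 and 1.1 in cuc2-3, against 1.81, 2.01 and 7.87 in WT. Its log2 fold change was -2.59 ± 0.68, or -1.55 without WT library 3. The remaining 3 were by far the highest in library 3 of cuc2-3.

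These were AT2G07727, annotated as cytochrome b, AT2G07733, a transcribed pseudogene, and AT4G27400, annotated as similar to late embryogenesis abundant proteins. AT2G07727 had 0.322, 0.339 and 11.4 normalised CPM in cuc2-3, against 0.125, 0.391 and 0.254 in WT, and its log2 fold change was 3.95 ± 1.27, or 0.34 without library 3 of cuc2-3. AT2G07733 had 0.735, 1.86 and 17.9 in cuc2-3, against 0.811, 0.614 and 0.720 in WT, and its log2 fold change was 3.27 ± 0.98, or 0.84 without that library. AT4G27400 had 0.322, 0.339 and 10.8 in cuc2-3, against 0.0624, 0.112 and 0.254 in WT. AT2G07727 and AT2G07733 lie on chromosome 2 in a region known as a nuclear copy of the mitochondrial genome. AT2G01008, next to an 18S ribosomal RNA model at the tip of chromosome 2, had 18.05, 11.6 and 63.8 in cuc2-3, against 8.74, 7.70 and 6.48 in WT, and its log2 fold change was 2.04 ± 0.52, or 0.96 without library 3 of cuc2-3.

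Other genes were lower in cuc2-3 with libraries that did not overlap and are given as examples with a small unadjusted p. AT3G05730, annotated as a defensin-like protein, a class of small secreted antimicrobial peptides, had 57.5, 84.2 and 51.0 normalised CPM in cuc2-3, against 100, 172 and 128 in WT, a log2 fold change of -1.06 ± 0.27. AT5G41650, of the glyoxalase type, had 2.94, 2.94 and 2.45 in cuc2-3, against 4.68, 4.91 and 4.57 in WT (-0.77 ± 0.21). AT5G56910, of the cystatin type of protease inhibitors, had 8.73, 6.38 and 8.21 in cuc2-3, against 11.98, 11.3 and 12.8 in WT (-0.63 ± 0.18). All 3 had a Benjamini-Hochberg adjusted p of 1 in edgeR, so the differences did not hold over 18291 tests although the libraries did not overlap.

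The nuclear genes with an unadjusted p below 0.05, 1.61% of those tested, were spread over the genome. The share was 1.44% on chromosome 1, 1.70% on chromosome 2, 1.40% on chromosome 3, 1.67% on chromosome 4 and 1.86% on chromosome 5. Within 1 Mb of CUC2, 8 of 356 genes tested had an unadjusted p below 0.05 (2.25%), and the libraries of 19 did not overlap (5.34%, against 5.28% of nuclear genes). No gene in that stretch passed, and its log2 fold changes ran from -1.29 to 1.40.

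The known pathways of leaf and shoot development showed few differences at this depth. Of 38 gene lists with 602 genes, 544 were tested and TRM21 was the only gene that passed. An unadjusted p below 0.05 was reached by 12 of the 544 (2.21%, against 1.96% of all genes), 7 higher and 5 lower, and the libraries of 19 did not overlap (3.49%, against 5.52%). For 66.7% of the list genes the 95% interval lay within a 2-fold change. Every list gene named below except TRM21 had a Benjamini-Hochberg adjusted p of 1 in edgeR, and the medians over all genes tested are near 0.

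**Figure D4:**
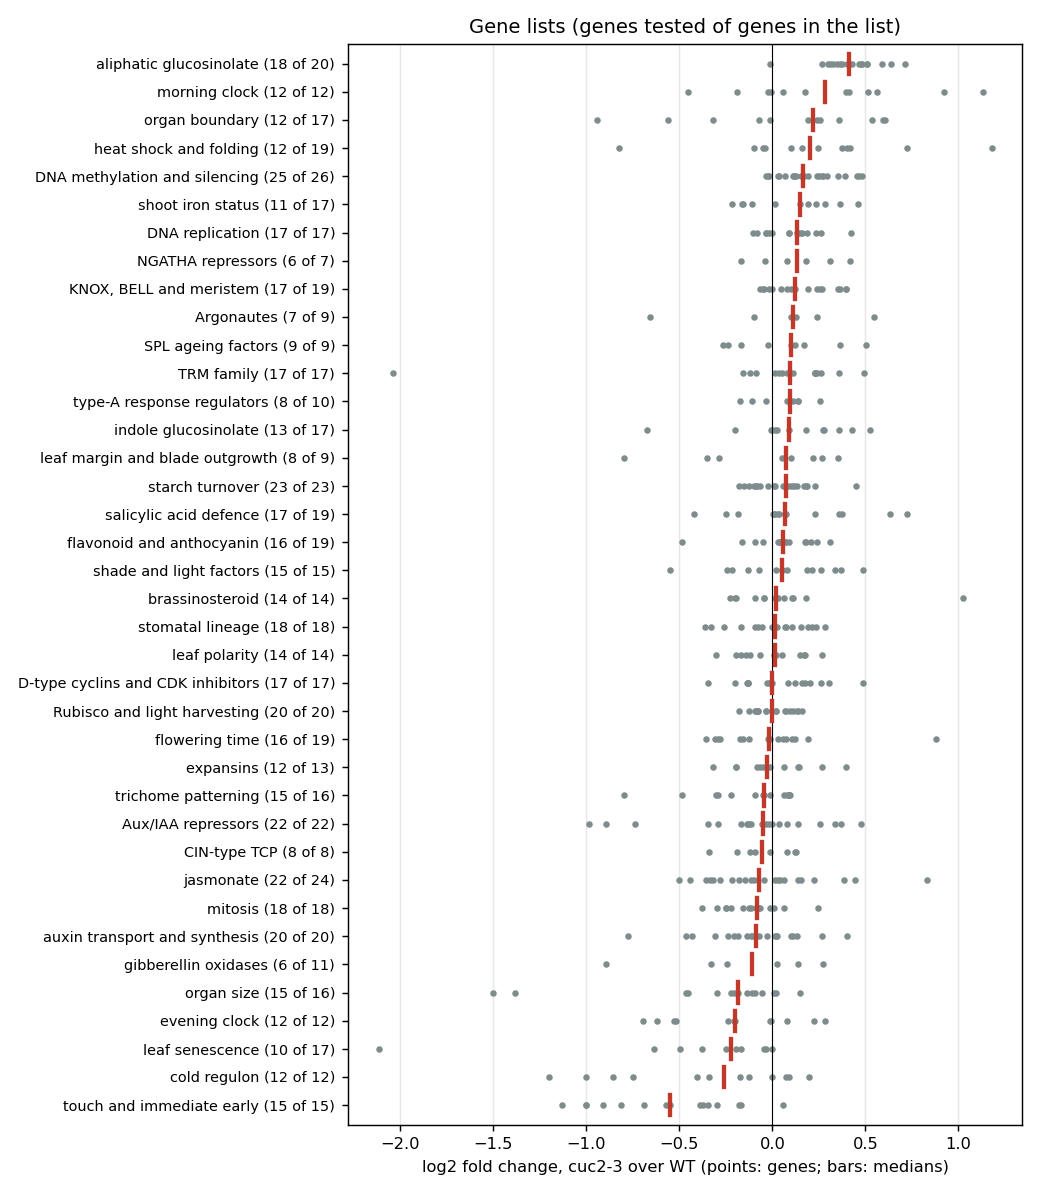
Log2 fold change of cuc2-3 over WT for each tested gene (points) in 38 lists, with the median of each list as a bar. The number tested and the number in the list stand beside each name; medians run from -0.55 (touch and immediate early) to 0.41 (aliphatic glucosinolate).

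Boundary genes, which mark the zone where CUC2 acts, had a median of 0.22 over 12 tested of 17, with 7 positive. LOB, a boundary transcription factor, had 14.7, 11.2 and 16.2 normalised CPM in cuc2-3, against 5.87, 9.99 and 11.7 in WT, and its log2 fold change was 0.60 ± 0.31. BOP2, which promotes boundary identity at the leaf base, had 16.2, 20.8 and 16.8 in cuc2-3, against 9.36, 16.2 and 11.5 in WT (0.54 ± 0.24, unadjusted p = 0.047). LOB overlapped between the groups, and for BOP2 the lowest cuc2-3 library stood only just above the highest WT library. The median of the list was 1.04 between libraries 1, 0.03 between libraries 2 and -0.27 between libraries 3, and -0.12 without WT library 1. NGATHA genes and their relatives, repressors of margin growth, had a median of 0.13 over 6 tested. DPA4, a member that represses CUC2, had the highest value at 0.42 ± 0.34, or 0.03 without library 1 of cuc2-3.

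Genes of blade outgrowth had a median of 0.08 over 8 tested. JAG, which promotes growth of the blade, had 1.88, 0.790 and 0.782 in cuc2-3, against 2.37, 2.06 and 1.61 in WT (-0.80 ± 0.45), and LMI1, a regulator of leaf margin shape, was at 0.27. Organ size genes had 3 of 15 positive and a median of -0.19, or 5 of 15 and -0.06 without WT library 3. None of the 15 had an unadjusted p below 0.05 in edgeR, and 3 did with the replicate block, against 3.73% of all genes. ARL and ARGOS, which promote organ growth, had -1.50 ± 0.68 and -1.39 ± 0.74 and rested on WT library 3. ARGOS had 0.873, 1.13 and 2.95 in cuc2-3, against 1.37, 1.79 and 9.86 in WT, and without WT library 3 ARL was at -0.42 and ARGOS at 0.08. GRF3, a growth-regulating factor, was at -0.46.

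Auxin and brassinosteroid genes showed single members only. WAG2, a kinase that directs auxin efflux carriers, had 1.19, 1.13 and 1.63 in cuc2-3, against 2.37, 1.62 and 2.84 in WT, lower by a log2 fold change of -0.78 ± 0.34 (unadjusted p = 0.043), the groups overlapping by a hair at 1.63 and 1.62. The 20 genes of auxin transport and synthesis tested had a median of -0.09, and the auxin synthesis gene YUC1 was at -0.46. The 22 Aux/IAA repressors had a median of -0.05. ROT3, a cytochrome P450 of brassinosteroid synthesis that sets leaf length, had 6.52, 5.42 and 5.72 in cuc2-3, against 2.62, 4.24 and 1.86 in WT. It was higher in every cuc2-3 library (1.02 ± 0.30, unadjusted p = 0.0063), while the 14 tested brassinosteroid genes had a median of 0.02.

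Cell cycle genes moved little and not together. DNA replication genes had 11 of 17 positive and a median of 0.13, with MCM6, a subunit of the replicative helicase, at 0.26. Mitosis genes had 3 of 18 positive and a median of -0.08, with CDKB1;1, a kinase for entry into mitosis, at -0.38 ± 0.21 and AUR1, an Aurora kinase, at -0.25. Among D-type cyclins and their inhibitors the median was 0.00 over 17, with the inhibitor KRP5 at 0.48. Stomatal lineage genes had a median of 0.01 over 18, with the polarity factor BASL at -0.36. KNOX, BELL and meristem genes had 12 of 17 positive and a median of 0.12.

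Lists of responses to the environment varied between pairs of libraries with the same number. Touch and immediate early genes, which are induced within minutes of handling, had 1 of 15 positive, against 48.3% of all genes, and a median of -0.55, with medians of -1.36, 0.20 and -0.80 in pairs 1, 2 and 3. CZF1, a zinc finger protein of cold and salt responses, had 18.3, 35.5 and 12.5 in cuc2-3, against 61.5, 49.1 and 21.8 in WT (-1.0 ± 0.41, unadjusted p = 0.033). The same gene was lower than its numbered WT partner in all 3 pairs although the groups overlapped. RHL41, a stress zinc finger, was at -0.82 ± 0.35, ERF6 at -0.91 ± 0.52 and WRKY40 at -0.69. In every library labelled CUC2gm-4, CZF1, RHL41, ERF6 and WRKY40 were also below every WT library. An unadjusted p below 0.05 was reached by 2 of the 15 touch genes, against 1.96% of all genes, and by 7 with the replicate block, against 3.73%. The median was -0.25, -1.26 and -0.27 without library 1, 2 or 3 of cuc2-3, so its size depended on which library was left out.

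Cold genes had 3 of 12 positive and a median of -0.26, with 1 of 12 at an unadjusted p below 0.05 (1.96% of all genes), or 4 with the replicate block (3.73%). The median was -0.08 without library 3 of cuc2-3 and -0.51 without library 2. CBF1, an activator of cold-regulated genes, had 2.3, 1.58 and 0.853 in cuc2-3, against 3.93, 3.29 and 3.60 in WT, and the groups did not overlap (-1.20 ± 0.37, unadjusted p = 0.0082). Its paralogue CBF2 was at -0.86 ± 0.44, and ZAT10 at -1.0 ± 0.68. Of the clock genes, 8 of 12 morning genes were positive (median 0.28) and 3 of 12 evening genes (median -0.20). An unadjusted p below 0.05 was reached by 1 morning gene and none of the evening genes (1.96% of all genes). With the replicate block it was 2 of each (3.73%). The pair medians were 0.66, -0.15 and 0.12 for morning genes and -0.92, 0.25 and -0.15 for evening genes, with the opposite signs in pair 2, and without library 3 of cuc2-3 the medians were 0.02 and 0.00. No difference between the phases was tested. PRR9, a morning clock repressor, had 8.68, 2.77 and 4.55 in cuc2-3, against 2.81, 2.18 and 2.33 in WT (1.13 ± 0.50), or 0.58 without library 1 of cuc2-3. PRR5, an evening member, had 54.7, 99.2 and 23.8 in cuc2-3, against 125, 94.3 and 54.3 in WT (-0.62 ± 0.51).

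Aliphatic glucosinolate genes, which make the methionine-derived mustard oil precursors, had 17 of 18 positive, and a median of 0.41. None of the 18 had an unadjusted p below 0.05, and 7 did with the replicate block, against 3.73% of all genes. MYB29, an activator of this pathway, had 60.8, 46.4 and 44.5 in cuc2-3, against 24.6, 49.1 and 32.8 in WT (0.51 ± 0.29). CYP83A1, a P450 of the core pathway, had 339, 518 and 475 in cuc2-3, against 211, 370 and 356 in WT (0.51 ± 0.34), and CYP79F2, which starts the core pathway from long-chain methionine derivatives, was at 0.71 ± 0.40. The pair medians were 1.12, 0.07 and 0.34, and the median was 0.17 without WT library 1. In the indole branch MYB51, its activator, was at -0.68 ± 0.31 with libraries that did not overlap, MYB34 at 0.52, and the median was 0.09 over 13.

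HSP101, a disaggregating chaperone, had 11.1, 8.81 and 10.2 in cuc2-3, against 7.61, 4.86 and 5.80 in WT (0.72 ± 0.22, unadjusted p = 0.0076), and the heat list had 8 of 12 positive with a median of 0.20. The libraries labelled CUC2gm-4 had HSP101 at 10.8, 7.88 and 11.1, also above every WT library. Leaf senescence genes had none of 10 positive and a median of -0.22. None of the 10 had an unadjusted p below 0.05 in edgeR, and 3 did with the replicate block, against 3.73% of all genes. SEN1, a gene of dark-induced senescence, had 4.32, 4.57 and 39.8 in cuc2-3, against 9.55, 3.24 and 200 in WT, so it was high in the libraries numbered 3 of both genotypes. Its log2 fold change was -2.12 ± 1.39, and 1.36 without WT library 3. The 20 tested genes of Rubisco and light harvesting, the most abundant nuclear transcripts of a leaf, had a median of 0.00 and 9 positive.

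**Figure D5:**
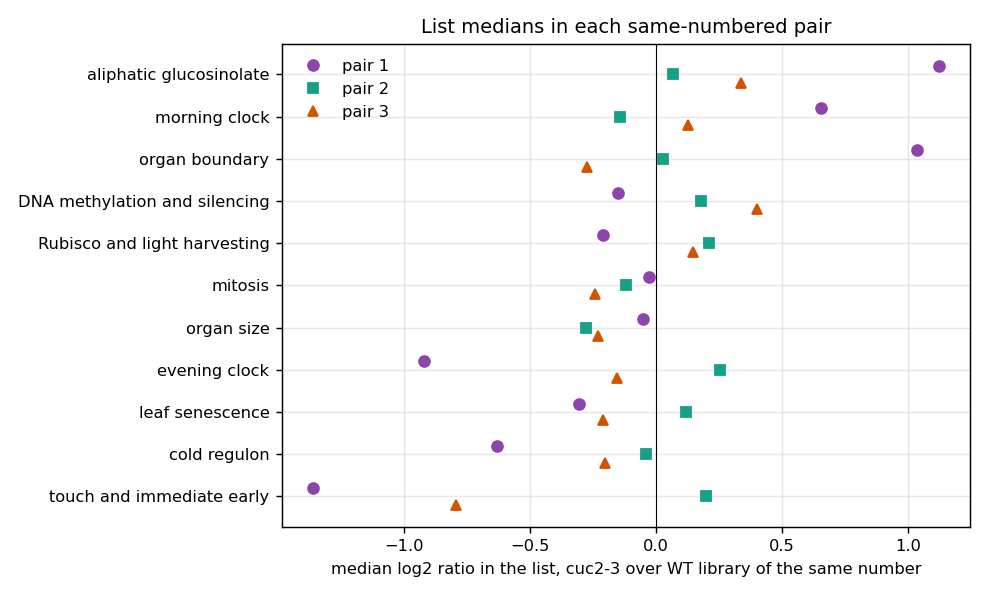
Median log2 ratio over a list of the cuc2-3 library to the WT library of the same replicate number, for 11 lists. Points are the pairs, by colour and shape; touch, both clock, cold, boundary and aliphatic glucosinolate lists lie farther from 0 in pair 1 than in pairs 2 and 3, and the touch list is at -1.36, 0.20 and -0.80.

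Genes of DNA methylation and silencing, which hold retroelements inactive, are given because SADHU3-2 passed. Of 25 tested, 22 were positive, with a median of 0.17, none passed, and the list's pair medians were -0.15, 0.18 and 0.40. Without library 3 of cuc2-3, 17 of the 25 were positive, with a median of 0.09. RDR2, which makes the double-stranded RNA for siRNAs of 24 nucleotides, had 9.23, 11.9 and 11.6 in cuc2-3, against 6.49, 8.37 and 8.55 in WT, and the groups did not overlap (0.48 ± 0.18, unadjusted p = 0.022). DCL2, a Dicer, was at 0.39, or 0.16 without library 3 of cuc2-3. AGO2, an Argonaute of antiviral defence, had 15.7, 19.8 and 17.9 in cuc2-3, against 14.5, 13.1 and 9.02 in WT (0.54 ± 0.19, unadjusted p = 0.017). The 7 tested Argonautes had a median of 0.11. In every library labelled CUC2gm-4, RDR2, DCL2 and AGO2 were also above every WT library, although SADHU3-2 was not high there. A link between these genes and SADHU3-2 was not tested.

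The other Sadhu elements did not move with SADHU3-2. Of 16 named in the reference, 10 were tested, SADHU3-2 was the only one that passed, and 8 of the 10 had a negative log2 fold change, with a median of -0.14. SADHU5-1 had 37.3, 41.1 and 32.4 normalised CPM in cuc2-3, against 53.5, 51.0 and 74.7 in WT, so it was lower in every cuc2-3 library (-0.69 ± 0.23, unadjusted p = 0.012). The elements were grouped after their values were seen. All 17 TRM genes were tested, and 13 were positive with a median of 0.10. TRM1, known to promote lengthwise leaf growth, had 32.0, 50.6 and 42.2 in cuc2-3, against 32.4, 32.6 and 23.7 in WT, overlapping at 32.0 (0.49 ± 0.19, unadjusted p = 0.028). TRM22 was at 0.24, so TRM21 was the only gene of its family that passed and the one with the lowest log2 fold change.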

How the data were processed

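Counts per gene model (33602 per library) were deposited by the authors for 9 Ion Torrent Proton libraries of messenger RNA. Per the file headers, reads were counted with sam2pkm and reads with several equally good places were removed; the build was TAIR10 per the submitters' processing notes, with aligner and strand setting not stated there. Here, edgeR 4.0.16 (R 4.3.3) fitted a genotype factor by quasi-likelihood to all 9 libraries, with TMM factors, for genes at 1 CPM or more in 3 or more libraries, CUC2 kept in any case. Intervals are 95%; those of count ratios cover counting error only. DESeq2 1.42.0, limma 3.58.1 (voom), other scalings, no count minimum, 6 libraries, a replicate block and each library left out were alternatives. Libraries of 1 number deviated together (r of 0.198 to 0.586 in 9 pairs, against -0.477 to 0.188 in 18 others), so the numbers pair libraries. The fit behind the standard errors here did not use that pairing. For some genes its unadjusted p (edgeR) was larger than with the block: PRR5 0.24 against 0.0091, ERF6 0.10 against 0.0021, CYP83A1 0.16 against 0.0087. ARL had 0.050 against 0.0058 and LOB 0.082 against 0.016, while HEI10 had 0.037 against 0.046. None of these genes passed in either fit. The fit was tested on simulated data. Members and lists were chosen with earlier results of these data known. The text draws on genes past the threshold in any of these fits, the smallest p among non-overlapping genes, CUC and MIR164 genes, up to 4 per list and chromosome neighbours; genes beyond these, named as such, were chosen after their values were seen. Names, positions and sequences came from RefSeq TAIR10.1, which held 32835 of the identifiers.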

Additional observations from a re-analysis of the deposited data

How the results depend on the processing

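The 4 genes that passed did so in the fit of all 9 libraries with the replicate block, where 4 passed and 682 genes had an unadjusted p below 0.05 (3.73%, against 1.96% without it); the block fit of 6 libraries called 4 higher and 0 lower, losing TRM21 (-2.05, adjusted p 0.0502) and gaining 1 plastid gene. DESeq2 called 14 genes, 13 higher and 1 lower, and without number 3 of each genotype, an alternative added after seeing the data, edgeR called 8. Leaving out 1 library gave 3 to 4, since SADHU3-2 fell below the count minimum without any single cuc2-3 library. Leaving out 1 library gave -2.14 to 0.076 for ARGOS and -4.002 to 1.36 for SEN1, both turning positive without WT library 3; the cause was not tested. List medians moved by less than the spread between libraries in 804 combinations of list and setting and by more in 16. Low counts limit CUC1, CUC2, CUC3 and the miR164 precursors, and the size of the organelle differences depends on library 3 of cuc2-3.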
